A study of Caenorhabditis elegans with 6 samples.

Results

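Proteases and lipases that digest food in the gut lumen and break down material in lysosomes were examined in whole young adult Caenorhabditis elegans, a nematode. The members were all listed genes whose symbols begin with asp, cpr, cpl, cpz, ctsa, pcp or lipl followed by a number, which gave 42 of the 16262 genes in the table. They comprise 13 asp, 7 cpr, 1 cpl, 2 cpz, 7 ctsa, 5 pcp and 7 lipl genes. A further 6 genes with such names in the annotation (asp-7, asp-15, asp-18, asp-19, cpr-9 and lipl-8) were not analysed here.

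The tested libraries came from 3 samples of animals whose endogenous LARP-1 carries the engineered peroxidase APEX2 (knock-in LARP-1::APEX2, allele yq637). They were set against 3 samples of animals carrying GFP in that place (LARP-1::GFP, allele yq636). LARP-1 is an RNA-binding protein. All animals of both groups were grown at 20 °C on Escherichia coli OP50, collected from 150 plates, held for 2 h at 25 °C in 3.3 mM biotin-aniline and given H2O2 for 2 min. Libraries without a LARP-1 fusion or without the labelling treatment were not analysed here, so the comparison is between 2 tagged strains. The titles call the samples immunoprecipitations whereas the labels' protocols describe total RNA without a pull-down, so recovery near the tagged protein and RNA level in the animal cannot be told apart. Culture, exact age and library preparation may also differ between the strains and cannot be told apart from them.

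Lysosomal hydrolases are made as inactive precursors, delivered through the secretory pathway and activated in the acidic compartment. In C. elegans the intestine is the main digestive organ and its cells are rich in lysosome-related granules, and several of these enzymes are also secreted into the gut lumen to digest bacteria. Aspartyl proteases (asp) resemble mammalian cathepsin D, the cysteine proteases cpr, cpl and cpz resemble cathepsins B, L and Z, ctsa genes encode serine carboxypeptidases like cathepsin A, pcp genes encode prolyl carboxypeptidase-like enzymes, and lipl genes encode acid lipases. In fed worms the basic helix-loop-helix protein MXL-3 is known to repress several lipl genes, and on fasting HLH-30, the worm relative of mammalian TFEB, activates them.

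The libraries held between 3824041 and 6414569 reads on the listed genes. Markers of intestine, muscle, neurons, hypodermis, pharynx and oocytes were all detected. The first principal component of the log2 values held 50.9% of the variance and separated the groups. On the second, with 19.5%, APEX2 replicate 1 scored 28.3 while APEX2 replicates 2 and 3 scored -18.4 and -17.2, so values without that library are given where it changed a call.

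The members that passed the test went in different directions by family. Acid lipases and the cathepsin B-like and Z-like proteases were lower in the LARP-1::APEX2 libraries where they passed the test. Of the 6 tested cathepsin B-like genes, 4 did not pass. Carboxypeptidases of the ctsa and pcp families were higher where they passed, and the aspartyl proteases were split. Of the 42 members, 36 had a mean normalized count of at least 10 and were tested, 10 were higher and 10 lower, and 16 did not pass (limma, Benjamini-Hochberg adjusted p under 0.05 over all 10534 tested genes). These are 20 of 36, or 55.6%, where 21.7% of all tested genes were called, 11.6% higher and 10.1% lower. Among genes with a mean of at least 50, 18 of 28 members were called, or 64.3%, against 28.4% of the 7023 genes tested at that level. In 20 of the 36, or 55.6%, the APEX2 and GFP values were fully separate, against 37.4% of all tested genes. The called, lower and fully separate members include lipl-3 and lipl-7, which entered the test through the GFP libraries alone. The tested members had a median log2 difference of -0.06, from -1.84 to 0.97, and all tested genes one of 0.02. The count of higher members was 5 without APEX2 replicate 2 and 4, 6 or 4 without GFP replicate 1, 2 or 3. Over all tested genes the count of higher genes fell as well, from 1219 to 828 without APEX2 replicate 2. It was 744, 783 or 612 without GFP replicate 1, 2 or 3. The count of lower members lay between 7 and 12 when any 1 library was left out. As the labels give whole animals as the source, fewer cells of a tissue and less RNA per cell cannot be told apart either.

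**Figure D1:**
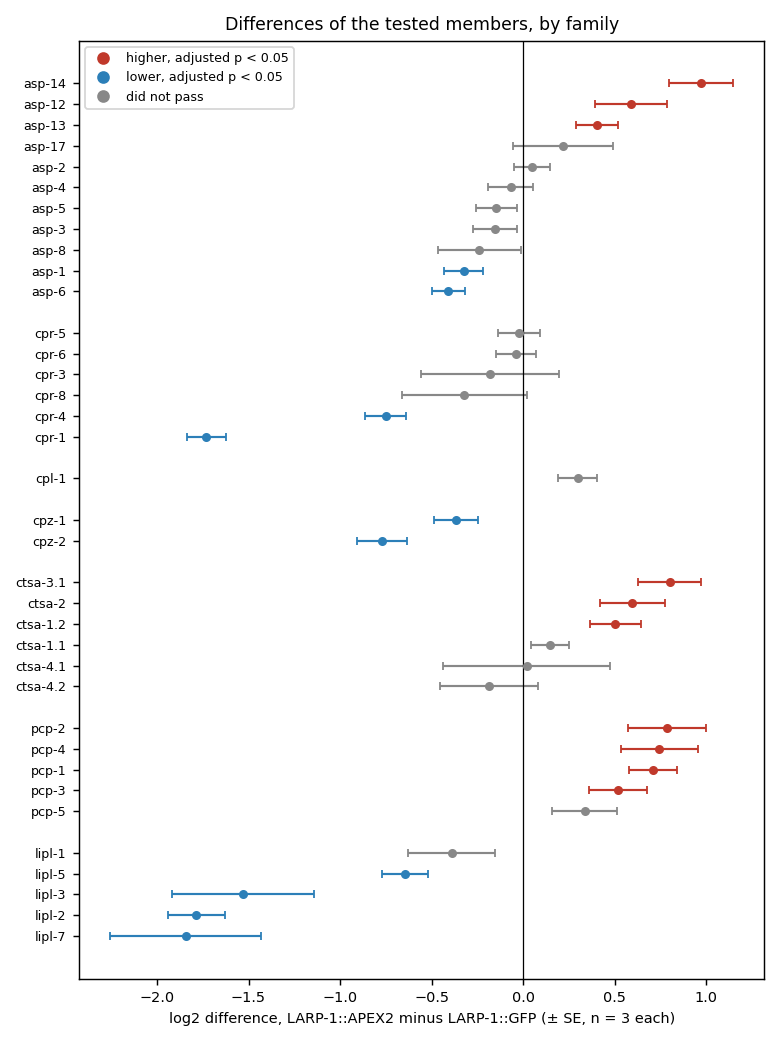
Log2 difference (LARP-1::APEX2 minus LARP-1::GFP) with its standard error for each of the 36 tested members, grouped by family and ordered within it, with 3 libraries per group. All 5 lipl and all 6 cpr points lie below 0 and all 5 pcp points above 0, while the asp points run from -0.41 to 0.97. Of these, lipl-3, lipl-7 and cpr-3 had APEX2 means under the minimum of 10 and entered the test through the GFP libraries. The points of cpr-5 and cpr-6, at -0.03 and -0.04, lie within their standard errors of 0, and their sign changed when some libraries were left out.

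Among the 3 acid lipases with a mean of at least 50, lipl-1 did not pass, and lipl-2 and lipl-5 were lower. At that level 12.1% of all tested genes were lower. The genes lipl-3 and lipl-7 were lower too, but entered the test through the GFP libraries alone, so the median of -1.53 over all 5 tested lipl genes, which is the value of lipl-3 itself, is no measure of the family. No lipl gene was higher at an unadjusted p under 0.05 or by edgeR or DESeq2. Together the 7 listed lipl genes accounted for 0.00714% ± 0.000458 of reads in the APEX2 libraries and 0.0143% ± 0.000143 in the GFP libraries (SD, n = 3).

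The gene lipl-2 (chromosome V, 9791567 to 9793241, plus strand) had normalized counts of 56.6, 54.1 and 57.4 in the LARP-1::APEX2 libraries and 201, 189 and 196 in the LARP-1::GFP libraries. Replicates lay close together in each group and the groups were far apart, with the APEX2 mean at 28.6% of the GFP mean. On the log2 scale the difference was -1.79 ± 0.16 (limma adjusted p = 8.0e-06), and it lay between -1.84 and -1.72 under all 16 alternative settings. The gene lipl-5 (chromosome V, 385746 to 387740, plus strand), which had the highest level per kilobase of the family, had 223, 194 and 221 with APEX2 and 331, 353 and 315 with GFP. Every APEX2 library was below every GFP library, with a log2 difference of -0.65 ± 0.12 (limma adjusted p = 0.0022). Both lipases are among those known to be raised by fasting.

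At much lower counts, lipl-3 (chromosome V, 521595 to 524218, minus strand) had 11.8, 4.67 and 6.23 with APEX2 and 24.5, 17.9 and 25.1 with GFP. The groups did not overlap, and the log2 difference was -1.53 ± 0.39 (limma adjusted p = 0.012). The call ended without GFP replicate 1 or 3 (adjusted p = 0.059 and 0.070). The gene lipl-7 (chromosome IV, 10239278 to 10241823, minus strand), the only listed lipl gene off chromosome V, had 4.71, 8.40 and 2.77 with APEX2 and 20.6, 20.2 and 19.4 with GFP. All GFP libraries were above all APEX2 libraries, with a log2 difference of -1.84 ± 0.41 (limma adjusted p = 0.0058). In both genes the APEX2 mean (7.56 for lipl-3, 5.29 for lipl-7) was under the minimum of 10 and the GFP mean over it, so they entered the test through the GFP libraries. The fewest reads behind these values were 5 for lipl-3 and 4 for lipl-7.

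The gene lipl-1, which with lipl-3 is known for breaking down stored fat delivered to lysosomes during fasting, had 57.7, 34.5 and 42.2 with APEX2 and 48.1, 62.7 and 63.96 with GFP. The groups overlapped, and at -0.39 ± 0.24 on the log2 scale the gene did not pass (limma adjusted p = 0.27). The other lipases were near 0 and untested: lipl-4, known for lengthening life when germ cells are absent, had a mean of 0.949 and lipl-6 one of 0.883. The exons of lipl-4 overlap a tRNA and a non-coding RNA on the opposite strand over 202 bases.

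The other lipases and the known regulators of these genes were also examined. Of 4 tested lipases of lipid droplets and the cytosol, 1 was lower and 3 did not pass. This is 25%, against 10.1% of all tested genes called lower and 21.7% called in either direction. The 4 lipases had a median log2 difference of -0.24, and fil-2 was untested. None of them was higher by limma, edgeR or DESeq2, or at an unadjusted p under 0.05. The gene that fell was fil-1, a lipase known to be induced by fasting, with 9.43, 21.5 and 13.8 in the LARP-1::APEX2 libraries and 51.1, 52.6 and 74.2 in the LARP-1::GFP libraries. Its log2 difference was -1.97 ± 0.31 (limma adjusted p = 0.00054). The adipose triglyceride lipase gene atgl-1 had 390.1, 353 and 331 with APEX2 and 456, 405 and 389 with GFP, which did not pass at -0.22 ± 0.12 on the log2 scale (adjusted p = 0.21).

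Among 11 tested regulators and lipid chaperones, 2 were higher, 2 were lower and 7 did not pass, around a median log2 difference of 0.04. This is 36.4% called, against 21.7% of all tested genes. The repressor gene mxl-3 had normalized counts of 293, 262 and 279.5 in the LARP-1::APEX2 libraries and 129, 138 and 101 in the LARP-1::GFP libraries. The lowest APEX2 library was above the highest GFP library, with a log2 difference of 1.19 ± 0.15 (limma adjusted p = 0.00013) and was called without any 1 library. The activator gene hlh-30 had 1273, 926 and 873 with APEX2 and 1037, 1009 and 954 with GFP, a log2 difference of 0.02 ± 0.13 (adjusted p = 0.95) whose sign changed with the scaling. The nuclear hormone receptor gene nhr-49, which controls fat use, rose by 0.54 ± 0.12 (limma adjusted p = 0.0060). The transcription factor genes pqm-1 and daf-16 had differences of -0.62 ± 0.14 and -0.36 ± 0.11 (limma adjusted p = 0.0058 and 0.028). The call of pqm-1 ended without GFP replicate 3 (adjusted p = 0.053). That of daf-16 ended without APEX2 replicate 2 or 3 or any 1 GFP library (adjusted p = 0.064 to 0.13). The gene lbp-8, whose product carries lipids from the lysosome to the nucleus downstream of LIPL-4, was under the minimum with a mean of 3.55.

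**Figure D2:**
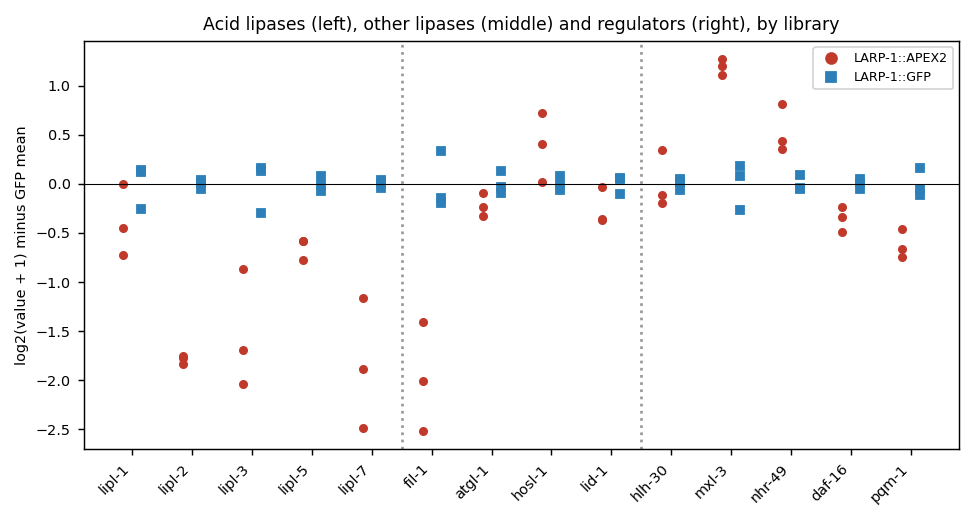
Log2(normalized count + 1) of each library minus the mean of the GFP libraries, for the tested lipl genes (left), the other tested lipases (middle) and 5 regulators (right), with APEX2 points left of GFP points. The lipl-2 points of APEX2 lie close together near -1.8, mxl-3 lies above 1 in all 3 APEX2 libraries, and hlh-30 scatters on both sides of 0.

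Cathepsin B-like proteases were lower or did not pass. Of 6 tested cpr genes 2 were lower, 0 were higher and 4 did not pass. This is 33.3%, against 10.1% of all tested genes called lower and 21.7% called in either direction. With a mean of at least 50, 2 of 4 cpr genes were lower, against 12.1% of all genes tested at that level. The median log2 difference of the 6 tested cpr genes was -0.25. No cpr gene was higher at an unadjusted p under 0.05 or by edgeR or DESeq2. Together the family accounted for 0.159% ± 0.0143 of reads in the APEX2 libraries and 0.275% ± 0.0143 in the GFP libraries (SD, n = 3). This lower share came mostly from cpr-1 and cpr-4. The mean summed normalized count was 7308 with APEX2 and 12162 with GFP. Of it cpr-1 held 1172 and 3886, and cpr-4 held 3072 and 5154.

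The gene cpr-1 (chromosome V, 11975551 to 11976756, plus strand), a gut cysteine protease, had the lowest adjusted p of all members. It had normalized counts of 1143, 1302 and 1070.3 in the LARP-1::APEX2 libraries and 3529, 4134 and 3994 in the LARP-1::GFP libraries. The APEX2 libraries lay together at 30.2% of the GFP mean, far below every GFP library. This is a log2 difference of -1.73 ± 0.11 (limma adjusted p = 3.0e-07), and it lay between -1.82 and -1.67 under all 16 alternatives. Per kilobase of exon, cpr-1 was below its relative cpr-5 in each APEX2 library, at 1060.3, 1208 and 993 against 1797, 1767 and 1352 normalized counts per kilobase. In each GFP library it was above cpr-5, at 3273, 3835 and 3705 against 1592, 1737 and 1637. So the order of these genes differed between the groups in every library.

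The gene cpr-4 (chromosome V, 6614674 to 6615851, plus strand), whose product is known to be secreted, had the highest level per kilobase among the cpr genes. It had 3457, 3105 and 2655 with APEX2 and 4806, 5591 and 5064 with GFP. The groups did not overlap, and the log2 difference was -0.75 ± 0.11 (limma adjusted p = 0.00039). In contrast cpr-5 had 2166, 2129 and 1629 with APEX2 and 1919, 2094 and 1972 with GFP, and cpr-6 had 1134, 1113 and 947 with APEX2 and 988, 1191 and 1107 with GFP. Both overlapped between the groups, with log2 differences of -0.03 ± 0.12 and -0.04 ± 0.11 (limma adjusted p = 0.90 and 0.83). The least abundant tested were cpr-8, at 14.1, 10.3 and 10.4 with APEX2 and 15.7, 15.7 and 12.6 with GFP, and cpr-3, with a mean of 10.2. Their log2 differences of -0.32 ± 0.34 and -0.18 ± 0.38 did not pass. The gene cpr-3 lay just inside the minimum of 10 and cpr-2, with a mean of 5.55, just outside it.

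The cathepsin Z-like genes were both lower, as were 10.1% of all tested genes and 12.1% of those with a mean of at least 50. The gene cpz-2 (chromosome V, 13381189 to 13383077, plus strand) had 126, 122.2 and 125 in the LARP-1::APEX2 libraries and 218, 209.5 and 211 in the LARP-1::GFP libraries. Replicates differed little within either group, and the log2 difference was -0.77 ± 0.14 (limma adjusted p = 0.0012). Its exons overlap the opposite-strand gene gcy-34 over 59 of 1564 bases, and gcy-34 had a mean of 1.49 with APEX2 and 1.45 with GFP. The gene cpz-1 (chromosome I, 2686640 to 2689429, minus strand), known to be needed for moulting, had 1009.9, 811 and 823 with APEX2 and 978, 1261 and 1171 with GFP. The groups overlapped, since APEX2 replicate 1 lay above GFP replicate 1, and the log2 difference was -0.37 ± 0.12 (limma adjusted p = 0.043). That call ended without APEX2 replicate 2 or 3 or GFP replicate 2 or 3 (adjusted p = 0.094 to 0.20).

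The cathepsin L gene cpl-1 (chromosome V, 16592572 to 16595346, minus strand), essential in embryos and for the handling of yolk, had a positive difference that did not pass. It had 2925, 3362 and 3489 with APEX2 and 2918, 2570 and 2469 with GFP, and the lowest APEX2 value was barely above the highest GFP value. The difference was 0.30 ± 0.11 on the log2 scale (limma adjusted p = 0.056), and without APEX2 replicate 1 it was 0.37 (adjusted p = 0.0082). The 2 cystatins, secreted inhibitors of such cysteine proteases, did not pass either. They were called by none of limma, edgeR and DESeq2, and 1 was higher at an unadjusted p under 0.05. The more abundant of them, cpi-2, had 1530, 1009 and 960.3 normalized counts with APEX2 and 862, 979 and 898 with GFP. APEX2 replicate 1 stood far above the other libraries and the groups overlapped, at 0.32 ± 0.15 on the log2 scale (limma adjusted p = 0.14).

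**Figure D3:**
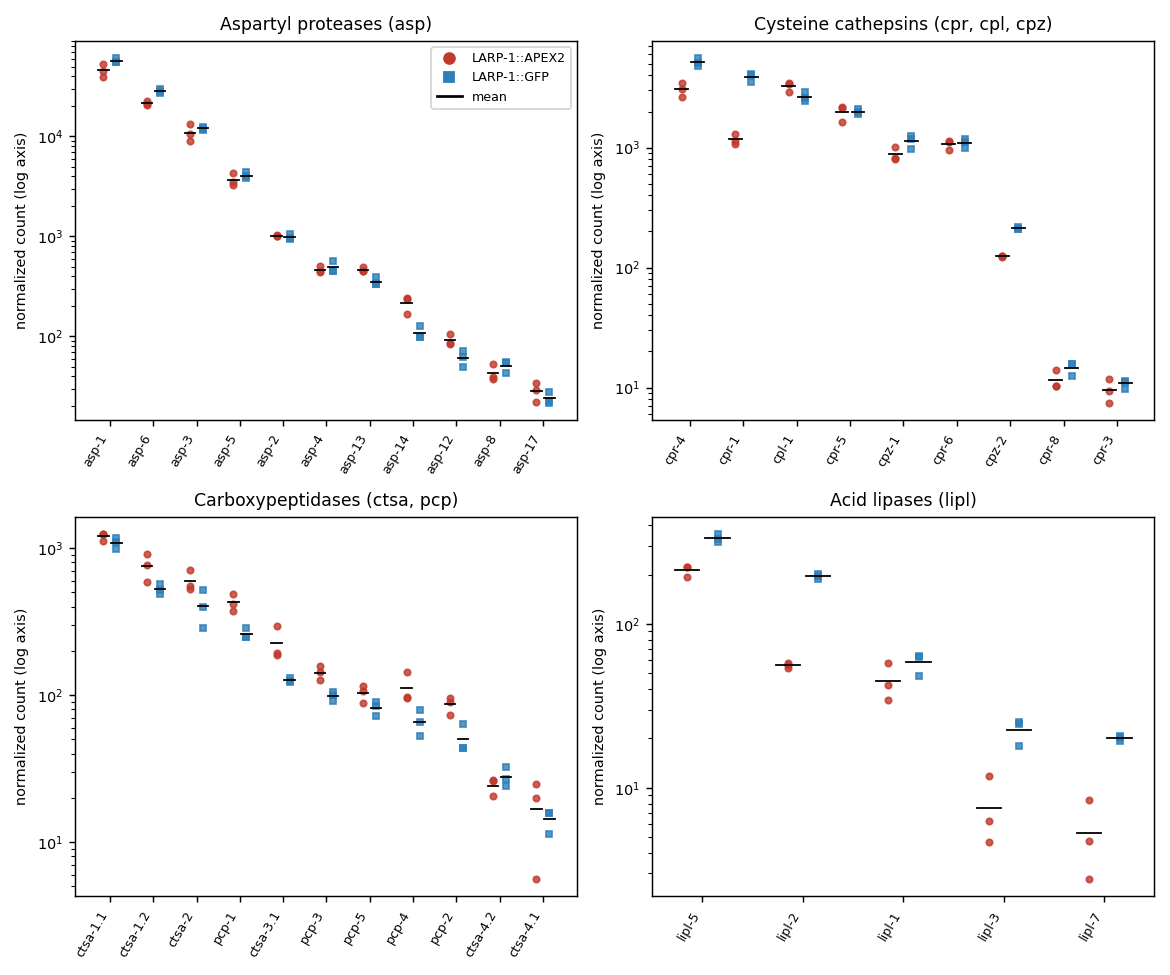
Normalized counts per library (log axis) of the 36 tested members in 4 panels, with APEX2 points left of GFP points and a black bar at each mean, ordered by the GFP mean. The levels span from asp-1, from 39465 to 60957, to lipl-7, at 2.77 to 20.6, and cpr-1 and lipl-2 stand out for groups that are far apart.

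The aspartyl proteases held most of the reads of all members. The genes asp-1, asp-6 and asp-3 took 78.4% of the members' normalized counts with APEX2 and 79.2% with GFP. The gene asp-1 had the most reads of any listed gene in 5 of the 6 libraries and was second in APEX2 replicate 3. The whole family accounted for 1.84% ± 0.158 of reads in the APEX2 libraries and 2.36% ± 0.0411 in the GFP libraries (SD, n = 3). Of 11 tested asp genes, 3 were higher, 2 were lower and 6 did not pass, with a median log2 difference of -0.07. Called were 45.5% of them, against 21.7% of all tested genes. With a mean of at least 50, 3 of 9 asp genes were higher and 2 lower, where 28.4% of all genes tested at that level were called. The asp genes that fell were abundant, and those that rose were minor members of the family.

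The gene asp-1 (chromosome V, 19049562 to 19050752, minus strand), an intestinal protease, had normalized counts of 53256, 45557 and 39465 in the LARP-1::APEX2 libraries and 55798, 60957 and 55324.5 in the LARP-1::GFP libraries. All APEX2 libraries were below all GFP libraries, although APEX2 replicate 1 came close to the nearest. On the log2 scale the difference was -0.33 ± 0.11 (limma adjusted p = 0.044). The call ended without APEX2 replicate 2 or 3 or any 1 GFP library (adjusted p = 0.0997 to 0.17), and with quantile normalization the difference was -0.14 (0.38). The gene asp-6 (chromosome V, 8267511 to 8268937, minus strand) had 22859.8, 21012 and 20790.5 with APEX2 and 28508, 30081 and 27269 with GFP. The groups were well apart, with a log2 difference of -0.41 ± 0.09 (limma adjusted p = 0.0050) that was called under all 16 alternatives.

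Of the rising genes, asp-14 (chromosome X, 6444185 to 6446664, minus strand) had the highest log2 difference of all members. It had 167, 234 and 245 with APEX2 and 127, 99.7 and 99.4 with GFP, and no APEX2 library was as low as any GFP library. This is a log2 difference of 0.97 ± 0.18 (limma adjusted p = 0.0015), from 0.87 to 1.14 under the alternatives. The gene asp-13 (chromosome V, 8641602 to 8643193, minus strand) had 496, 454 and 449.7 with APEX2 and 332, 393 and 336 with GFP, groups that did not overlap. Its log2 difference was 0.40 ± 0.12 (limma adjusted p = 0.022), and the call ended without APEX2 replicate 2 or GFP replicate 1 or 3 (adjusted p = 0.051 to 0.11). The gene asp-12 (chromosome V, 8269210 to 8272056, plus strand) had 83.7, 86.8 and 106 with APEX2 and 71.7, 49.3 and 62.8 with GFP. That difference of 0.59 ± 0.20 was close to the threshold (limma adjusted p = 0.046), and the call ended without any 1 library other than APEX2 replicate 1 (adjusted p = 0.056 to 0.20). It also ended with edgeR (0.054), DESeq2 (0.079), libraries scaled to the same total (0.086), no filter (0.058) and a correction for exonic length (0.066).

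The proteases known for their part in necrotic death of neurons, asp-3 and asp-4, did not pass. The gene asp-3 had 13233.5, 10570.5 and 9036 with APEX2 and 11712, 11969.8 and 12448 with GFP, and asp-4 had 507, 456 and 437 with APEX2 and 454, 451 and 569.9 with GFP. In both genes the groups overlapped, with log2 differences of -0.16 ± 0.12 and -0.07 ± 0.12 (limma adjusted p = 0.40 and 0.73). For asp-3 APEX2 replicate 1 was the highest library of all 6, and without it the gene was lower by the test, at -0.30 on the log2 scale (adjusted p = 0.021). The gene asp-5 also passed only without that library, at -0.15 ± 0.11 (limma adjusted p = 0.39) with all libraries and -0.27 (0.043) without APEX2 replicate 1. The calpains, cytosolic proteases that act with these aspartyl proteases in neuronal necrosis, were not called by limma, edgeR or DESeq2 in any of 5 tested genes. At an unadjusted p under 0.05, limma gave 1 higher and 1 lower. Of the remaining asp genes, asp-8 had 53.0, 37.3 and 39.4 with APEX2 and 43.2, 53.8 and 56.0 with GFP, which overlap, and did not pass at -0.24 ± 0.23. The genes asp-2 and asp-17 had log2 differences of 0.05 and 0.22 that did not pass. The genes asp-9 and asp-16 were near 0, with means of 0.633 and 0.231.

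Chromosome V held 24 of the 42, or 57.1%, against 20.6% of the listed genes with a position. The genes asp-6, asp-12 and asp-5 are neighbours among the members, with gaps of 272 and 328 bases, yet asp-6 was lower, asp-12 was higher and asp-5 did not pass. Likewise asp-17, asp-16 and asp-1 lie in a row on the minus strand with gaps of 1707 and 6956 bases, while their mean normalized counts were 26.3, 0.231 and 51726. The pair cpr-5 and cpr-8 are 565 bases apart, and cpr-5 was far more abundant, at 1647 normalized counts per kilobase of exon against 11.98. Tested members on chromosome V had a median log2 difference of -0.28, with 3 higher and 8 lower of 20, and those on the other chromosomes one of 0.24, with 7 higher and 2 lower of 16. The 8 lower on chromosome V include lipl-3, and the 2 lower on the other chromosomes include lipl-7. Both entered the test through the GFP libraries alone, and the 2 medians hold them as well. For all tested genes of chromosome V the median was 0.01, with 227 higher and 213 lower of 1834. Chromosome and family go together among the members and cannot be told apart. All cpr genes but cpr-6 and all lipl genes but lipl-7 lie on chromosome V. All ctsa genes and all pcp genes but pcp-4 lie elsewhere. Copies with similar sequence can share reads, and the sources used here do not say how such reads were counted.

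The carboxypeptidases were higher or did not pass. Of 6 tested ctsa genes 3 were higher (50%, against 11.6% of all tested genes) and 3 did not pass. With a mean of at least 50, 3 of 4 ctsa genes were higher, against 16.3% of all genes tested at that level. The median log2 difference of the 6 tested ctsa genes was 0.32. None was lower by limma, edgeR or DESeq2, or at an unadjusted p under 0.05. Together the ctsa genes accounted for 0.0611% ± 0.00467 of reads in the APEX2 libraries and 0.0493% ± 0.00282 in the GFP libraries (SD, n = 3).

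The gene ctsa-3.1 (chromosome II, 7232853 to 7235920, plus strand) had 293, 193 and 186 in the LARP-1::APEX2 libraries and 124, 129.9 and 123 in the LARP-1::GFP libraries. Every APEX2 library was above every GFP library and APEX2 replicate 1 was the highest. The difference was 0.80 ± 0.17 on the log2 scale (limma adjusted p = 0.0048), and 0.59 without that library. Its exons overlap aqp-1 on the opposite strand over 93 of 1811 bases, and aqp-1 itself had a log2 difference of -0.04 ± 0.13. The gene ctsa-1.2 (chromosome II, 11739358 to 11742876, plus strand) had 905, 765 and 590.2 with APEX2 and 485, 516 and 572 with GFP, groups that nearly met. On the log2 scale the difference was 0.50 ± 0.14 (limma adjusted p = 0.019), and the call ended without APEX2 replicate 2 or GFP replicate 1 or 2 (adjusted p = 0.070 to 0.088). The gene gpb-1, which overlaps it on the opposite strand over 66 of 1657 exonic bases, had a log2 difference of 0.09 ± 0.10. The gene ctsa-2 (chromosome X, 6421036 to 6430610, minus strand), the longest member at 7175 exonic bases, had 703.5, 549 and 528 with APEX2 and 397, 519.7 and 285.5 with GFP. The GFP libraries spread widely, and the lowest APEX2 library was just above the highest of them. This is a log2 difference of 0.60 ± 0.18 (limma adjusted p = 0.028). It was 0.37 without GFP replicate 3, and the call ended without that library, GFP replicate 1, APEX2 replicate 1 or APEX2 replicate 2 (adjusted p = 0.058 to 0.17). The most abundant, ctsa-1.1, had 1239.7, 1122 and 1236 with APEX2 and 991, 1168 and 1096 with GFP, groups that overlapped, and did not pass at 0.15 ± 0.10 on the log2 scale. The gene ctsa-4.2 had 25.9, 20.5 and 26.3 with APEX2 and 32.4, 26.9 and 24.0 with GFP, and neither it nor ctsa-4.1 passed, at -0.19 ± 0.27 and 0.02 ± 0.46. The gene ctsa-3.2 was near 0, with a mean of 0.881.

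Of the 5 prolyl carboxypeptidase-like genes, all tested, 4 were higher (80%, against 11.6% of all tested genes) and pcp-5 did not pass. All 5 had a mean of at least 50, and 16.3% of all genes tested at that level were higher. The median log2 difference of the 5 pcp genes was 0.71. None was lower by limma, edgeR or DESeq2, or at an unadjusted p under 0.05. They accounted for 0.0189% ± 0.00147 of reads in the APEX2 libraries and 0.0126% ± 0.000448 in the GFP libraries (SD, n = 3). The most abundant was pcp-1 (chromosome III, 7758903 to 7761262, plus strand), with 488, 417 and 375 in the LARP-1::APEX2 libraries and 246, 284.5 and 248 in the LARP-1::GFP libraries. Its groups were well apart, with a log2 difference of 0.71 ± 0.13 (limma adjusted p = 0.0016) that was called under all 16 alternatives.

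The adjacent genes pcp-2 and pcp-3 on chromosome IV (9160588 to 9165127 and 9155148 to 9159019, both minus strand) lie 1568 bases apart and were both higher. The gene pcp-2 had 89.6, 73.7 and 96.2 with APEX2 and 63.8, 43.7 and 43.4 with GFP, and pcp-3 had 157, 143 and 127 with APEX2 and 105, 90.7 and 100.5 with GFP. Neither gene's groups overlapped, with log2 differences of 0.79 ± 0.21 and 0.52 ± 0.16 (limma adjusted p = 0.017 and 0.031). The gene pcp-4 (chromosome V, 19822734 to 19831011, minus strand) had 143, 95.2 and 96.9 with APEX2 and 65.8, 79.5 and 52.5 with GFP, a log2 difference of 0.74 ± 0.21 (limma adjusted p = 0.022). It was highest in APEX2 replicate 1, and its groups did not overlap. These calls were less firm than that of pcp-1. That of pcp-2 ended without GFP replicate 2 or 3 (adjusted p = 0.079 and 0.089), that of pcp-3 without any 1 library other than APEX2 replicate 3 (0.059 to 0.12) and that of pcp-4 without APEX2 replicate 1 or GFP replicate 1 or 3 (0.055 to 0.13). The call of pcp-3 ended as well with DESeq2 (adjusted p = 0.057), libraries scaled to the same total (0.056) and a correction for exonic length (0.054). The gene pcp-5 had 107, 116 and 88.6 with APEX2 and 71.7, 89.6 and 84.5 with GFP, a log2 difference of 0.34 ± 0.18 (adjusted p = 0.21).

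**Figure D4:**
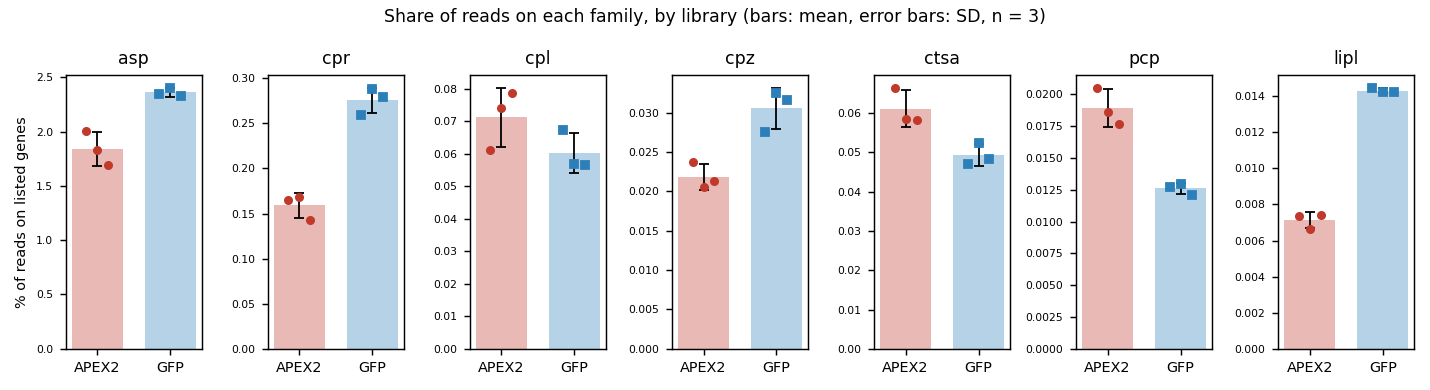
Percent of the reads on listed genes that fell on each family, by library, with bars at the mean and error bars of 1 SD (n = 3), APEX2 left of GFP, on a linear axis from 0 that differs between panels. The lipl share was 0.00714% with APEX2 and 0.0143% with GFP, and the pcp and ctsa shares were higher with APEX2. The cpr share was lower with APEX2, mostly through cpr-1 and cpr-4.

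A further list held lysosomal hydrolases of nucleic acids, glycans and lipids together with relatives of them. Whether every product on it is lysosomal was not tested. Of its 21 tested genes, 1 was higher, 5 were lower and 15 did not pass, with a median log2 difference of -0.12. That is 28.6% called, against 21.7% of all tested genes. The glucocerebrosidase gene gba-1, the hexosaminidase gene hex-1 and its relative hex-3 fell, with log2 differences of -1.004, -0.84 and -0.55 (limma adjusted p = 0.0082, 0.0096 and 0.013). The acid DNase gene nuc-1 and the ceramidase gene asah-1, named after their values were seen, had -0.66 and -0.45 (adjusted p = 0.016 and 0.040). The gene aagr-3, named as a relative of acid glucosidase genes, rose by 0.47 (adjusted p = 0.035). The call of gba-1 ended without GFP replicate 2 (adjusted p = 0.055), that of hex-3 without GFP replicate 1 or 3 (0.066 and 0.064) and that of nuc-1 without APEX2 replicate 2 or GFP replicate 2 or 3 (0.064 to 0.087). Those of asah-1 and aagr-3 each ended without any of 5 libraries (0.073 to 0.17 and 0.055 to 0.15), the exceptions being APEX2 replicate 1 for asah-1 and APEX2 replicate 3 for aagr-3.

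Of 13 tested lysosomal membrane proteins and transporters, 2 were lower, 0 were higher and 11 did not pass. This is 15.4%, against 10.1% of all tested genes called lower and 21.7% called in either direction. Of the 13, 11 had a positive difference and 2 a negative one. The median log2 difference of the 13 was 0.18. None was called higher by edgeR or DESeq2 either, and 3 were higher at an unadjusted p under 0.05 by limma. The cholesterol transporter gene ncr-1, of the Niemann-Pick C1 family, fell to 65.3 ± 10.5 normalized counts in the APEX2 libraries, against 116 ± 7.83 in the GFP libraries (SD, n = 3), which is -0.83 ± 0.18 on the log2 scale (limma adjusted p = 0.0050). The scavenger receptor-like gene scav-3 had one of -0.54 ± 0.17 (adjusted p = 0.037), a call that ended without APEX2 replicate 2 or 3 or GFP replicate 2 or 3 (0.098 to 0.15). The general lysosomal marker lmp-1 had 777 ± 34.2 normalized counts in the APEX2 libraries and 707 ± 12.5 in the GFP libraries (SD, n = 3), which did not pass at 0.14 ± 0.10 on the log2 scale (limma adjusted p = 0.36).

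Markers of tissues were examined as well, and their part in the differences of the members was not tested. Of 14 intestine markers 4 were higher, 0 were lower and 10 did not pass, with a median log2 difference of 0.21. All of those called were higher, which is 28.6%, against 11.6% of all tested genes called higher and 21.7% called in either direction. Of the 14, 11 had a positive difference and 3 a negative one. By edgeR and DESeq2 0 were lower too, and at an unadjusted p under 0.05 limma gave 1 lower. That marker was ges-1, whose groups did not overlap, at -0.51 ± 0.23 on the log2 scale (limma adjusted p = 0.14). Summed, the intestine markers ranged from 8767 to 11180 normalized counts with APEX2 and from 6393 to 7388 with GFP. Of the mean sums of 9729 with APEX2 and 6744 with GFP, act-5 alone held 3917 and 1984. The intestinal actin gene act-5 and the peptide transporter gene pept-1 rose by 0.98 and 0.73, the acid phosphatase gene pho-1 by 0.92 and the proton pump gene vha-6 by 0.54 (limma adjusted p = 0.00026, 0.0017, 0.0036 and 0.014). The call of vha-6 ended without GFP replicate 1 or 3 (adjusted p = 0.066 for each). The intestinal regulator genes elt-2 and elt-7 had log2 differences of -0.41 ± 0.33 and 0.15 ± 0.33 that did not pass. Of 6 oocyte markers 5 were higher and rme-2, the yolk receptor gene, was lower, where 11.6% of all tested genes were higher and 10.1% lower. The oocyte markers had a sum of 22665 to 24401 with APEX2 and 18357 to 18927 with GFP.

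Muscle markers had 1 higher and 1 lower of 5 tested, hypodermis 1 higher of 5 and pharynx 1 higher of 6. These are 40%, 20% and 16.7% called, against 21.7% of all tested genes. By edgeR and DESeq2 the higher muscle call, that of unc-15, was absent. By DESeq2 the pharynx call, that of phat-1, was absent too. Neuron, coelomocyte and sperm markers had none called of 7, 2 and 3 by limma, edgeR or DESeq2, with 2, 0 and 0 at an unadjusted p under 0.05 by limma. Their summed normalized counts ranged from 13890 to 17009 with APEX2 and 13855 to 15964 with GFP for muscle, from 4199.8 to 5886 with APEX2 and 4699 to 5541 with GFP for hypodermis, and from 1289 to 1773.5 with APEX2 and 1558 to 1629 with GFP for pharynx. For neurons the ranges were 1954 to 2090.5 with APEX2 and 1976 to 2022 with GFP. For coelomocytes they were 42.9 to 55.4 with APEX2 and 32.0 to 43.2 with GFP. For sperm they were 313 to 404 with APEX2 and 335 to 354 with GFP. Single genes held much of some sums. Of the mean pharynx sums of 1504 with APEX2 and 1604 with GFP, mlc-5 held 689 and 821. Of the mean hypodermis sums of 5079 with APEX2 and 5071 with GFP, col-19 held 4453 and 4485. The call of the pharynx gene phat-1 ended without any 1 library other than APEX2 replicate 3, and those of the muscle genes unc-15 and myo-3 and of the oocyte genes cbd-1, oma-1, oma-2, puf-5 and rme-2 each ended without at least 1 library.

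**Figure D5:**
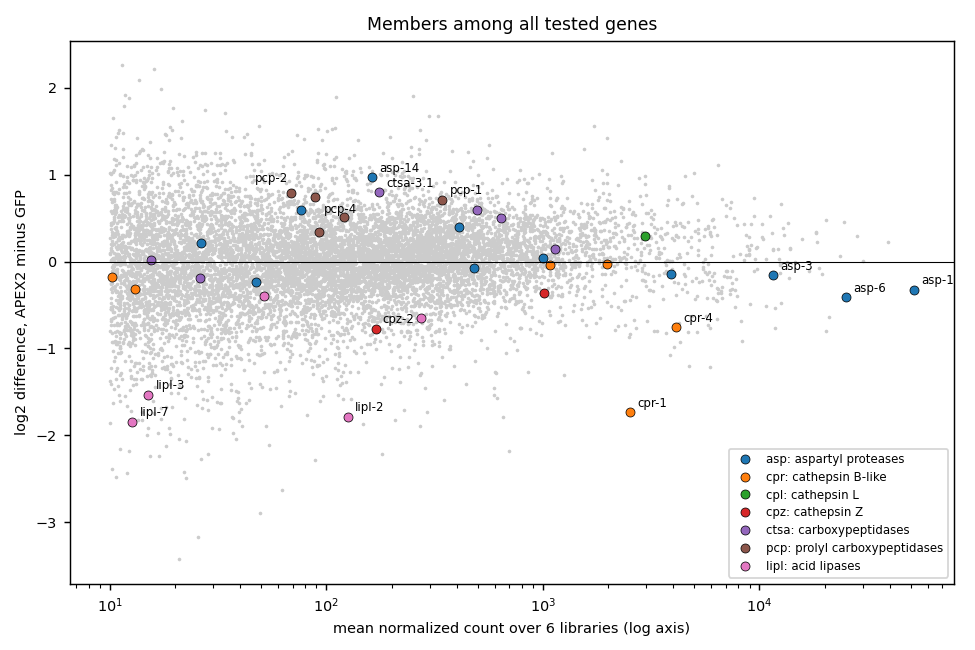
Log2 difference (LARP-1::APEX2 minus LARP-1::GFP) against the mean normalized count over the 6 libraries (log axis) for all 10534 tested genes in grey, with the tested members coloured by family. Members cover nearly the whole range of levels, with asp-1 at the far right, and cpr-1, lipl-2, lipl-3 and lipl-7 lie well below the middle of the cloud, between -1.53 and -1.84.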

How the data were processed

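Whole-animal RNA of 6 samples was sequenced after ribosomal RNA depletion, per the labels' protocols. Build ce11 and the tools STAR, Bowtie, featureCounts, Trim Galore and DESeq2 appear in the submitters' processing notes. Their settings, versions and strand use were not given in the sources used here. Normalized counts were deposited by the authors, a signal that its values show to be gene counts divided by 1 factor per library. Divided by a library's smallest nonzero value, 100% of its values were whole within 0.001, so reads could be recovered (3824041 to 6414569 per library). Reads outside the listed genes are unknown, and PCR duplicates count as reads.

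Genes with a mean of at least 10 (10534) were compared as log2(value + 1) by limma 3.58.1 (R 4.3.3; trend and robust options, no covariate). Differences on that scale understate changes of low genes, and their errors are standard errors. Alternatives were edgeR 4.0.16 (1127 higher, 1096 lower over all genes) and DESeq2 1.42.0 (1034 and 958) on recovered reads, other pseudocounts, filters and scalings, a correction for exonic length, a replicate block and leaving out each library.

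Names matched the Ensembl WBcel235 annotation (the assembly of ce11; coordinates 1-based) by symbol for 15705 genes and by sequence name for 490, and all 42 members matched. Levels between genes were compared per kilobase of merged exons. Every member that passed is named with all its values, as are the most abundant of each family and the largest difference that did not pass. Of each other list, up to 3 called genes and the most abundant are named. Further genes, such as daf-16, vha-6, asp-3, ges-1, elt-2 and elt-7, were chosen after their values were seen. Members and gene lists were chosen with earlier results of these data known. Whether replicates were separate cultures is not labelled, and the p-values then reflect only the spread of these samples, possibly technical. No 2 replicates agreed within sampling noise (chi-square per degree of freedom 2.62 to 10.7).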

Additional observations from a re-analysis of the deposited data

How the results depend on the processing

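Of the 20 called members, 10 kept their call under every alternative that gave a value (asp-6, asp-14, cpr-1, cpr-4, cpz-2, ctsa-3.1, lipl-2, lipl-5, lipl-7 and pcp-1), 10 lost it under at least 1, and none changed direction. DESeq2 gave no adjusted p for lipl-7, and lipl-7 and lipl-3 are not among the genes with a mean of at least 50. Both entered the test through the GFP libraries alone. The count of higher members lay between 4 and 9 and that of lower members between 7 and 12 when 1 library was left out. Over all tested genes these counts then lay between 612 and 1310 and between 550 and 1191. With the other settings the counts of higher and lower members lay between 7 and 10 and between 8 and 10. Corrected for exonic length, 8 were higher and 10 lower. The replicate numbers were not shown to pair the samples, since same-numbered samples had deviations correlated at -0.16, -0.08 and 0.02. With a replicate block 7 members were higher and 8 lower, and the calls lost were those of asp-1, asp-12, asp-13, cpz-1 and pcp-3 (adjusted p = 0.051 to 0.079).

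Among genes that had not passed, signs changed for hlh-30, at -0.042 with libraries scaled to the same total, -0.102 with quantile normalization and -0.046 corrected for length, and from -0.152 to 0.119 when 1 library was left out. They changed under the same settings for the calpain gene clp-1 (-0.012, -0.048, -0.016, and from -0.117 to 0.184). When 1 library was left out they changed for the cuticle gene col-19 (-0.157 to 0.125) and the muscle gene unc-54 (-0.21 to 0.008). Of the members that had not passed, signs changed for asp-2 (-0.011 scaled to the same total, -0.055 with quantile normalization), asp-4 (0.042 without GFP replicate 3), cpr-5 (0.107 without APEX2 replicate 3, 0.01 without GFP replicate 2), cpr-6 (0.041 and 0.022 without the same libraries) and ctsa-4.1 (-0.034 scaled to the same total, -0.02 corrected for length, and as low as -0.361 when 1 library was left out). Leaving out APEX2 replicate 1 moved asp-8 to -0.392 and asp-17 to 0.077, neither of which passed. The cause was not tested. Genes with few reads, such as lipl-3, lipl-7, cpr-3 and cpr-8, have wide errors at this depth.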
